A study of Mus musculus and Sus scrofa with 30 samples.

Results

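The genes described are 10 that code for enzymes of the pentose phosphate pathway and for other enzymes that make NADPH: Pgd, Pgls, Tkt, Taldo1, Rpia, Rpe, H6pd, Idh1, Idh2 and Nnt. They were chosen with earlier results of these data known, so counts of them called are descriptive. Their rows were found by symbol, ignoring case. In the mouse table they make up 11 of 24843 genes, because Nnt is listed under 2 gene identifiers. In the pig table they make up 9 of 34307 genes, and pig RPE was not analysed here. All 11 mouse and all 9 pig genes passed the filter on low values, a table-wide mean of 10 or more, and were tested.

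RNA was measured by bulk sequencing in 2 cell systems on day 5 of induced fat cell formation. The mouse system was 3T3-L1, an established line of embryonic fibroblasts that can turn into adipocytes. The pig system was dedifferentiated fat (DFAT) cells, derived from subcutaneous fat. Each system had 5 groups of 3 libraries: DMSO vehicle, dicoumarol (an anticoagulant and inhibitor of the quinone reductase NQO1), magnolol (a compound of magnolia bark), dicoumarol together with magnolol (called the combination), and rosiglitazone (a drug that activates the nuclear receptor PPARγ). Every 3T3-L1 group, vehicle included, also received insulin (0.75 µg/mL), dexamethasone (75 nM) and IBMX (37.5 µM) in 10% serum. Every DFAT group received dexamethasone at 0.5 µM, IBMX at 12.5 µM, biotin at 20 µM and pantothenate at 10 µM in 2% serum, so the induction differs between the systems as well as the species. Neither the doses of the compounds nor the number of pigs or cultures behind the libraries is given in the labels used here. The p-values therefore measure only the spread between these libraries, which may be technical.

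The pentose phosphate pathway takes glucose phosphate away from glycolysis. Its oxidative arm yields NADPH and a pentose phosphate, and its non-oxidative arm interconverts sugar phosphates through isomerases, transketolase and transaldolase. NADPH is the reductant of fatty acid synthesis, which fat cells run at a high rate, and of the glutathione and thioredoxin systems. Cytosolic and mitochondrial isocitrate dehydrogenases and the mitochondrial transhydrogenase are further sources of it.

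The values are the authors' gene counts divided by size factors (normalized counts), with an estimated depth of 22.8 to 30.7 M reads in 3T3-L1 libraries; DFAT libraries were deeper, at 44.8 to 70.5 M. Fold changes are log2 differences of the value plus 1, given with limma's moderated standard error (SE). A gene was called at a Benjamini-Hochberg adjusted p under 0.05 over all genes tested in a table, and the share of all tested genes called is given as the background of each count. The labelled cell types were checked with marker genes. In 3T3-L1 the summed level of 8 adipocyte markers was 45596 to 64056 in the vehicle libraries, 65903 to 100364 with dicoumarol, 94355 to 139551 with magnolol, 120508 to 190495 with the combination and 336836 to 586638 with rosiglitazone. Limma called 0, 7, 8 and 8 of these 8 markers higher than vehicle under the 4 treatments in that order. With dicoumarol, 7 of the 8 had an unadjusted p under 0.05. The summed level of 6 fibroblast markers was 235983 to 260866 with vehicle and 138023 to 179546 with rosiglitazone, where all 6 were lower. That of 4 proliferation markers was 5762 to 7535 and 8033 to 9652, with 3 of the 4 higher. Endothelial markers were near 0, with Kdr at 0 in 11 of 15 libraries, and the 3 macrophage markers present summed to 92.6 to 215, with Lyz2 called lower with magnolol, the combination and rosiglitazone. In DFAT the adipocyte markers summed to 23183 to 24947 with vehicle, 28260 to 30653 with dicoumarol, 41794 to 49060 with magnolol, 63646 to 69759 with the combination and 85067 to 91639 with rosiglitazone, with 6, 7, 7 and 8 of 8 called higher. The 5 fibroblast markers present summed to 1581900 to 1734150 with vehicle, 2218790 to 2315920 with dicoumarol, 2529950 to 2898110 with magnolol, 2521480 to 2997190 with the combination and 1233580 to 1371920 with rosiglitazone. Collagen gene COL1A1 made up most of that sum, and the members moved apart. Of the 4 tested, magnolol and the combination each called 2 higher (COL1A1 and COL3A1) and 1 lower (PDGFRA), dicoumarol 1 higher (COL1A1) and 1 lower (PDGFRA), and rosiglitazone 1 lower (PDGFRA). Among markers of other cell types in DFAT, endothelial KDR was at 0 in 15 of the 15 libraries and CDH5 in 14, but PECAM1 was at 149 to 236 in every library. Of the macrophage markers PTPRC was at 0 in 14 libraries and CD68 was at 47.9 to 95.3. The muscle markers summed to 22.0 to 68.2 with vehicle and 124 to 155 with the combination, where DES was called higher (log2 1.81, adjusted p = 0.00463 by limma), and MYOD1 was at 0 in 12 libraries. The preadipocyte marker DLK1, counted with the fibroblast markers, was at 0 in 12 libraries. These markers move with the groups, and their part in the results below was not tested. In bulk RNA, a change in the share of cells of a type and a change in RNA per cell cannot be told apart.

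RefSeq promoter sequences (build GRCm38.p6) were at hand for 9 of the 10 mouse genes, as 11 entries, with Nnt the gene not matched. The 250 bases before the start are shown for Taldo1, the gene with the highest fold change of the 10, and for Rpe, which was called in no comparison with all libraries in the fit. Both entries start within 39 bases of a GENCODE transcript start. Capitals mark the GC box GGGCGG on either strand.
Taldo1, chr7:141391910-141392159, plus strand: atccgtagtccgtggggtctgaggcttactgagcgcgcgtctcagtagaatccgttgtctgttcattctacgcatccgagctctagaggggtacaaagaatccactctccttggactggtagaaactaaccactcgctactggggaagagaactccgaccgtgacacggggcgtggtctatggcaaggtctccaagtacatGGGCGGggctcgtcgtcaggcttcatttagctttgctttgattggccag
Rpe, chr1:66700581-66700830, plus strand: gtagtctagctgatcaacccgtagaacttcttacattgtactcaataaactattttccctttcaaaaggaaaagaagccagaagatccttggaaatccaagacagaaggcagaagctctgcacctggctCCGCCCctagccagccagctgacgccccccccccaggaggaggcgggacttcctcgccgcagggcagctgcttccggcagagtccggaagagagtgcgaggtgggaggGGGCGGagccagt
The GC box occurred in 9 of the 11 entries, from 8 of the 9 genes, against 32.7% of 32851 promoter entries of the same length. It lay 49 bases before the start in Taldo1 and 121 and 13 bases before it in Rpe. Its part in the responses of these genes was not tested. The other 5 motifs searched on both strands matched no window of these genes. They were the core of the antioxidant response element (TGACNNNGC, in 10.2% of all promoters), a direct repeat of the nuclear receptor core AGGTCA with any base between the copies (0.0335%), a sterol response element (TCACNCCAC, 1.05%), the E-box CACGTG (6.02%) and the TATA box TATAAA (12.4%). For motifs as rare as 0.0335% or 1.05%, no match in 11 entries is the usual outcome, so their absence says little. The entry for H6pd, which held none of the motifs, starts 5787 bases inside the outermost GENCODE start of that gene. The only overlapping matches were a pair of GC boxes in Tkt that share a base.

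In 3T3-L1 cells rosiglitazone changed 9 of the 11 listed genes, 6 higher and 3 lower, against a background of 40.1% of 15723 genes called in that comparison. The 6 that rose were the pentose phosphate genes Pgd, Pgls, Tkt, Taldo1 and Rpia together with Idh1. The 3 that fell were H6pd, Idh2 and the Nnt row ENSMUSG00000116207. The median log2 fold change of the 11 was 0.36, beside −0.0015 for all genes. Rpe and the Nnt row ENSMUSG00000025453 were not called.

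The non-oxidative arm held the highest fold change. Taldo1 codes for transaldolase, which moves a three-carbon unit between sugar phosphates. The mouse table places it on chromosome 7 at 140972112 to 140982881, plus strand. Its normalized counts were 1737, 1211 and 1634 in vehicle replicates 1, 2 and 3, and 2132, 1679.8 and 2059 with dicoumarol. They were 2621, 2097 and 2341 with magnolol, 2875, 2455 and 2779 with the combination, and 5796, 4301 and 5292 with rosiglitazone. The means were in the order vehicle, dicoumarol, magnolol, combination and rosiglitazone. The ranges of neighbouring groups overlapped up to the combination, and every rosiglitazone library lay above every other library. Dicoumarol and magnolol were not tested against each other. The rosiglitazone libraries were 237% above vehicle, a log2 fold change of 1.75 (SE 0.144, adjusted p = 4.26e-07 by limma), and 88.7% above the combination (log2 0.92, SE 0.144, adjusted p = 0.00122 by limma).

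Tkt codes for transketolase, which moves a two-carbon unit between sugar phosphates. Its normalized counts were 3741, 3040.1 and 3435 with vehicle and 7208, 6003 and 5043 with rosiglitazone, and the groups did not overlap. The log2 fold change was 0.83 (SE 0.135, adjusted p = 0.000173 by limma). With dicoumarol Tkt was 3724 ± 273 (SD, n = 3), with magnolol 4243 ± 494 and with the combination 4423 ± 617.

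Rpia codes for the isomerase that forms ribose phosphate. Its counts were 480.1, 428 and 578 with vehicle and 849, 794 and 945 with rosiglitazone, again without overlap. The log2 fold change was 0.81 (SE 0.127, adjusted p = 0.000132 by limma). The combination libraries held 605, 593 and 693, all above the vehicle libraries. Rpe, which codes for the epimerase of the same branch point, had 1142, 1069 and 823 with vehicle and 1024, 1250.4 and 1425 with rosiglitazone, with overlapping groups. Its log2 difference was 0.29 (95% interval −0.02 to 0.59, adjusted p = 0.125 by limma). Without rosiglitazone replicate 1 it passed, at 0.41 (adjusted p = 0.0427 by limma). Rpe overlaps Kansl1l on the opposite strand in the deposited coordinates.

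In the oxidative arm, the phosphogluconolactonase gene Pgls and the phosphogluconate dehydrogenase gene Pgd rose. Pgd, whose product makes NADPH, had 4604, 3806 and 4345 with vehicle and 5648, 6066 and 5792 with rosiglitazone, without overlap. Its log2 fold change was 0.46 (SE 0.0847, adjusted p = 0.000483 by limma). Pgls had 1335, 839 and 1116 with vehicle and 2065, 1770.1 and 1273 with rosiglitazone, so that rosiglitazone replicate 3 lay below vehicle replicate 1. The log2 fold change of Pgls was 0.63 (SE 0.197, adjusted p = 0.0179 by limma). It was lost without vehicle replicate 2 (0.45, adjusted p = 0.102 by limma) and without rosiglitazone replicate 1 (0.48, adjusted p = 0.0941 by limma). Pgls overlaps Niban3 on the same strand in the deposited coordinates, so reads there may have been split between them.

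H6pd codes for the dehydrogenase that runs the opening steps of the oxidative arm inside the endoplasmic reticulum. Unlike Pgd and Pgls it fell, from 3426, 3965 and 3727 with vehicle to 2184, 2985 and 2513 with rosiglitazone. All 3 rosiglitazone libraries lay below all 3 vehicle libraries. H6pd fell by 0.54 on the log2 scale (SE 0.112, adjusted p = 0.00118 by limma), or by 31.3%. The dicoumarol and magnolol libraries, at 3655 ± 308 and 3613 ± 232 (SD, n = 3), overlapped the vehicle libraries, as did the combination at 3187 ± 289.

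The isocitrate dehydrogenase genes moved apart. Idh1, which codes for the cytosolic enzyme, had 10133, 9936 and 11222 with vehicle and 12416, 13393 and 14412 with rosiglitazone. Idh2, which codes for the mitochondrial enzyme, had 11315, 10600.2 and 14148 with vehicle and 7548, 9217 and 9688 with rosiglitazone. For neither gene did the groups overlap. Idh1 rose by 0.36 (SE 0.112, adjusted p = 0.0170 by limma), and Idh2 fell by 0.44 (SE 0.136, adjusted p = 0.0165 by limma). Both calls were lost in some fits with a library left out. Idh1 was lost without vehicle replicate 1 (adjusted p = 0.0507), vehicle replicate 2 (0.0592) or rosiglitazone replicate 3 (0.0693 by limma). Idh2 was lost without vehicle replicate 3 (adjusted p = 0.0842) or rosiglitazone replicate 1 (0.0841 by limma). Idh2 overlaps the gene Gm45203 on the same strand in the deposited coordinates.

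Nnt codes for the transhydrogenase of the inner mitochondrial membrane, which makes NADPH from NADH with the proton gradient. Its 2 mouse rows overlap on the same strand of chromosome 13, so the split of reads between them is uncertain. ENSMUSG00000116207 had 1031, 1305 and 1202 with vehicle and 683, 1012 and 915 with rosiglitazone. ENSMUSG00000025453 had 1448, 1384 and 1398 with vehicle and 1113, 1141 and 1351 with rosiglitazone. Neither row overlapped between the groups. The fold changes were −0.45 (SE 0.142, adjusted p = 0.0192) and −0.24 (SE 0.103, adjusted p = 0.0810 by limma). The call for ENSMUSG00000116207 was lost without vehicle replicate 2 (adjusted p = 0.0831), without rosiglitazone replicate 1 (0.114) and in a fit of only these 2 groups (0.0570 by limma). ENSMUSG00000025453 passed without rosiglitazone replicate 3 (adjusted p = 0.0310 by limma). With both rows summed, Nnt fell by 0.33 (SE 0.103, adjusted p = 0.0185 by limma). Nnt is on the minus strand of chromosome 13 at 119471984 to 119545533 in the deposited coordinates.

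**Figure D1:**
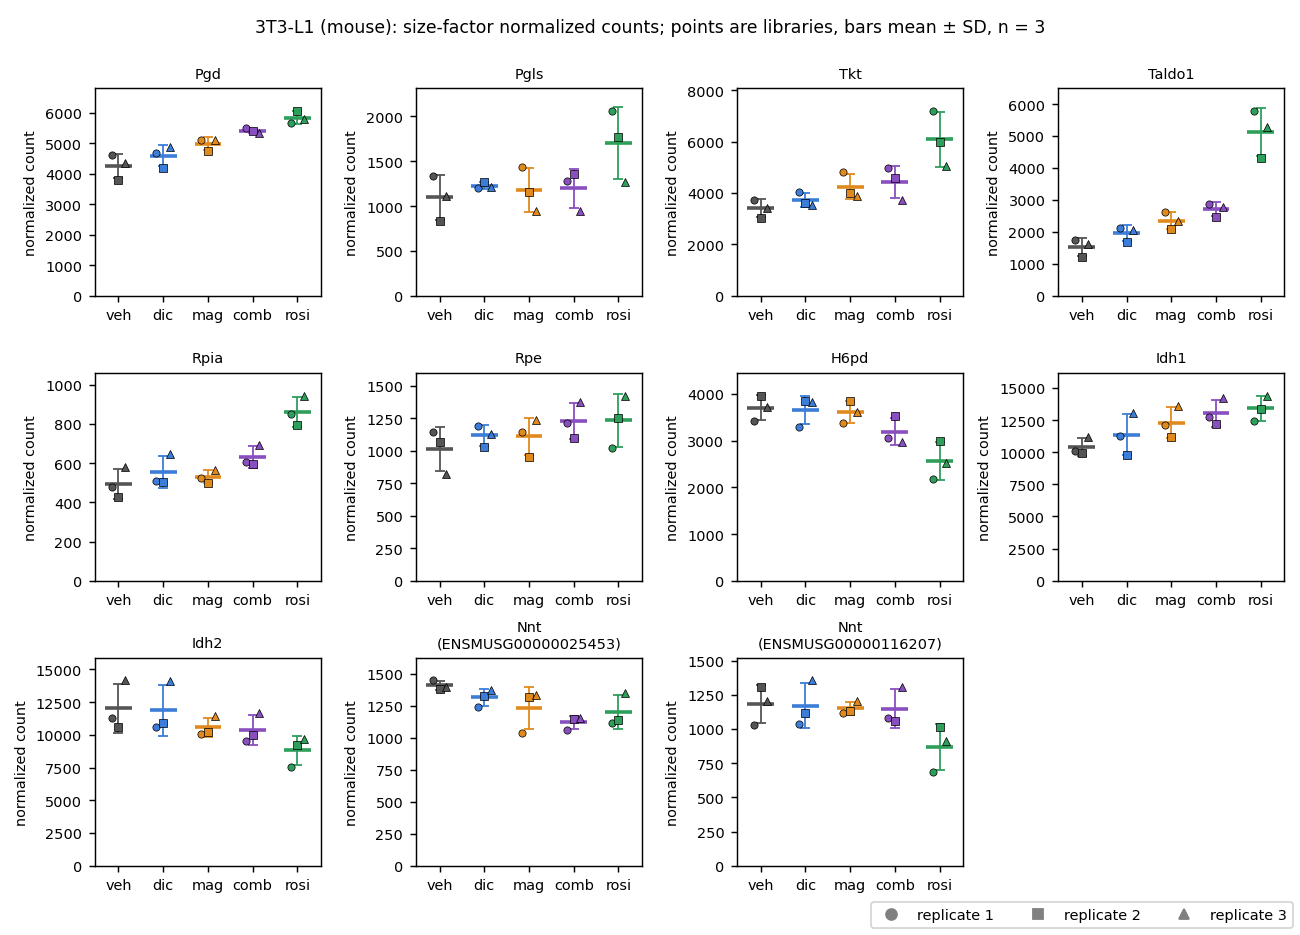
Normalized counts of the 11 mouse rows (vertical axes) in the 5 groups of 3T3-L1 libraries (veh vehicle, dic dicoumarol, mag magnolol, comb combination, rosi rosiglitazone), with each point a library and bars the mean ± SD (n = 3). Taldo1 is highest in the 3 rosiglitazone libraries, between 4301 and 5796, and the means of H6pd, Idh2 and ENSMUSG00000116207 are lowest there.

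Levels of different genes were compared only per kilobase of exon (GENCODE M21), since longer transcripts collect more reads. The length was the union of all annotated exons of a gene. It can exceed the length of the transcripts present, so the order of the genes is approximate. By mean normalized count per kilobase in the vehicle libraries, the isocitrate dehydrogenase genes stood highest, Idh2 at 4640 and Idh1 at 3760. H6pd at 708, Taldo1 at 704 and Pgd at 660 lay close together, and Rpia was lowest at 92.4. With rosiglitazone the order of the highest pair was turned, with Idh1 at 4840 and Idh2 at 3410, and Taldo1 at 2360 stood next. No test was made between genes.

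Magnolol changed 1 of the 11 rows in 3T3-L1, against a background of 1.23% of genes called. This was Taldo1, higher by 0.63 (SE 0.144, adjusted p = 0.0419 by limma), with all 3 magnolol libraries above all 3 vehicle libraries. The call was not stable to leaving out libraries. It was lost without vehicle replicate 2 (adjusted p = 0.154) or 3 (0.0835) and without magnolol replicate 1 (0.235), 2 (0.0514) or 3 (0.158 by limma). The fold change stayed between 0.48 and 0.71 in these fits. It was also lost with no filter on low values (0.05002), quantile normalization (0.0688), no variance trend (0.115) and only the groups compared (0.0947). The same replicate number marks libraries that deviate together in 3T3-L1, and the fit was repeated with that number as a replicate block. The block called 2 of the rows against 4.96% of all genes. It kept Taldo1 (adjusted p = 2.345e-05) and added Tkt (log2 fold change 0.32, adjusted p = 0.0354 with the block by limma). The fits with a library left out did not use the block.

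Dicoumarol changed 0 of the 11 rows in 3T3-L1 by limma, against a background of 0% of genes. At an unadjusted p under 0.05 there was 1 row, Taldo1, at 0.37 (95% interval 0.06 to 0.67). The lowest adjusted p of the 11 was 0.9998. With the replicate block Taldo1 was called (adjusted p = 0.0197 by limma), against 0.502% of all genes.

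The combination changed 2 of the 11 rows in 3T3-L1, both higher, against a background of 5.22%. Taldo1 was higher by 0.84 (SE 0.144, adjusted p = 0.00275 by limma). Pgd, at 5483, 5384 and 5345 against 4604, 3806 and 4345 with vehicle, was higher by 0.35 (SE 0.0847, adjusted p = 0.0242 by limma). The Pgd call was lost without vehicle replicate 2 (adjusted p = 0.0963) or 3 (0.0511), without combination replicate 1 (0.113), 2 (0.0564) or 3 (0.0640), and in a fit of only these 2 groups (0.0789 by limma). The replicate block called 7 of the 11 rows against 13.5% of all genes, Taldo1 and Pgd (adjusted p = 0.00367 by limma) among them. It added Tkt (0.37, adjusted p = 0.00597), Rpia (0.36, 0.00491), Idh1 (0.32, 0.00557), H6pd (−0.22, 0.0499) and ENSMUSG00000025453 (−0.33, 0.0117 by limma). The last row, a Nnt gene, also passed with quantile normalization (0.0447). For rosiglitazone the block called 10 of the 11 rows against 49.8% of all genes, adding ENSMUSG00000025453 (adjusted p = 0.0252 by limma). Among the calls it kept were Pgls (adjusted p = 0.00213), Idh1 (0.000484), Idh2 (0.000195) and ENSMUSG00000116207 (0.00173 by limma).

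The combination was next compared with each compound alone and with rosiglitazone. Against dicoumarol, limma called 0 of the 11 rows (background 0.0254%), with 3 at an unadjusted p under 0.05. Taldo1 differed by 0.47 (95% interval 0.16 to 0.78, adjusted p = 0.271), and the replicate block called it (adjusted p = 0.000864 by limma, against 3.62% of all genes). Against magnolol, limma called 0 rows (background 0%), and 0 had an unadjusted p under 0.05. The differences from magnolol ran from −0.18 to 0.25. The test of whether the 2 compounds together differ from the sum of their single effects called 0 of the 11 rows (background 0%, 0 at an unadjusted p under 0.05). Rosiglitazone gave higher levels than the combination in 3 rows, against a background of 18.3%. These were Taldo1 (above), Tkt by 0.45 (SE 0.135, adjusted p = 0.0295) and Rpia by 0.45 (SE 0.127, adjusted p = 0.0237 by limma). Tkt was lost without combination replicate 2 (0.0569) or 3 (0.131), without rosiglitazone replicate 1 (0.155), with no variance trend (0.0564) and with only the groups compared (0.0820). Rpia was lost without combination replicate 1 (0.0734) or 2 (0.0784) and without rosiglitazone replicate 1 (0.0688) or 3 (0.0823). Leaving out rosiglitazone replicate 2 called H6pd (−0.44, 0.00948) and ENSMUSG00000116207 (−0.53, 0.0175), which brought the count to 5, and leaving out replicate 3 called Pgls (0.69, 0.0328). A minimum mean of 50 and quantile normalization also gave 5 rows, adding H6pd (0.0482 and 0.0407) and ENSMUSG00000116207 (0.0478 and 0.0446). The replicate block called 7 against 33.3% of all genes, adding H6pd (−0.32, adjusted p = 0.00252), Idh2 (−0.24, 0.0282), Pgls (0.50, 0.0174) and ENSMUSG00000116207 (−0.41, 0.00612 by limma).

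**Figure D2:**
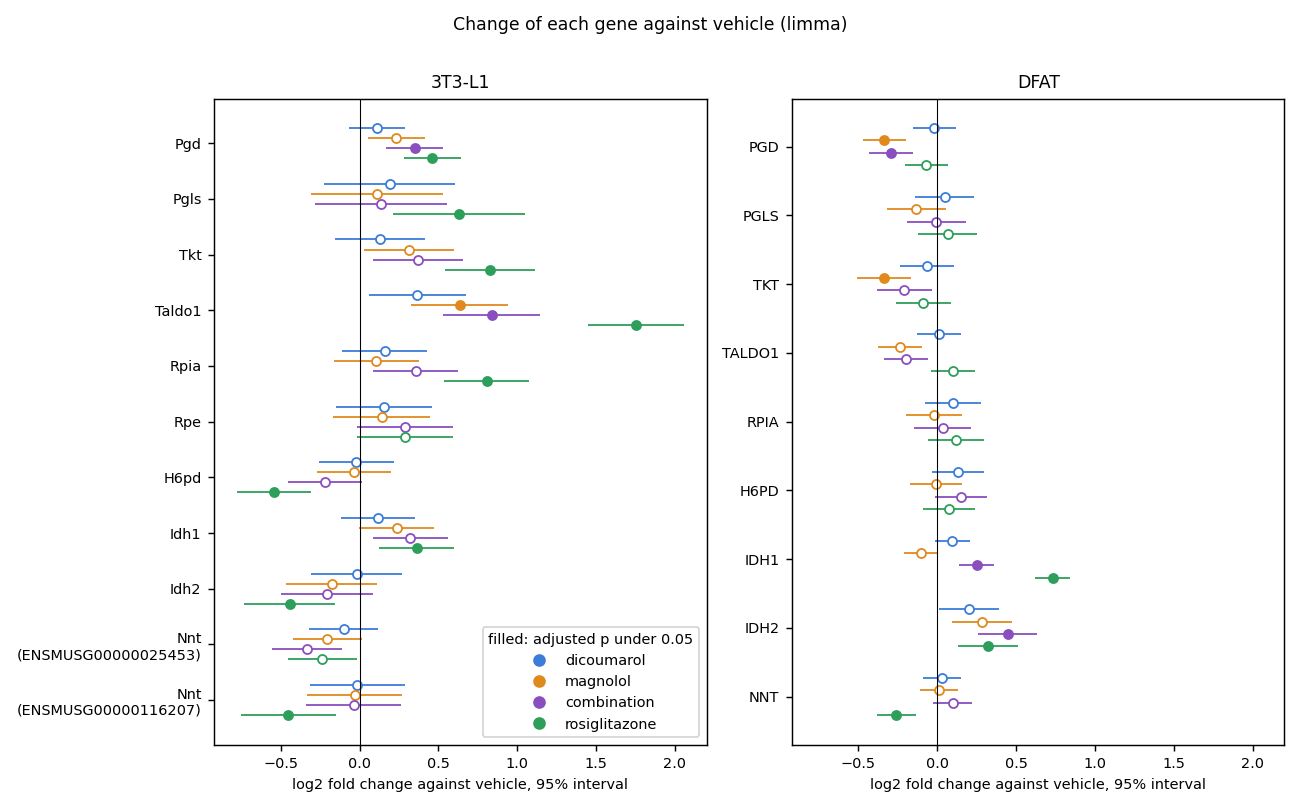
Log2 fold change against vehicle (horizontal axis) of each gene in 3T3-L1 and DFAT cells, with points the limma estimates, bars the 95% interval, colours the treatments and filled points an adjusted p under 0.05. The 3T3-L1 panel reaches 1.75 for Taldo1 with rosiglitazone, and the DFAT panel reaches 0.73 for IDH1 with rosiglitazone.

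In the pig DFAT cells both isocitrate dehydrogenase genes and NNT changed under rosiglitazone. Limma called 3 of the 9 genes, IDH1 and IDH2 higher and NNT lower, against a background of 10.8% of 14819 genes. The 5 pentose phosphate genes PGD, PGLS, TKT, TALDO1 and RPIA were not called, with log2 differences between −0.09 and 0.12. The median over the 9 genes was 0.07, beside −0.0057 for all genes.

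IDH1 had the highest fold change. Its normalized counts were 9595, 9072 and 9912 with vehicle, 10282, 9916 and 10312 with dicoumarol, and 8616, 9236 and 8743 with magnolol. They were 11525, 11302 and 11136 with the combination and 16202, 16008 and 15243 with rosiglitazone. The order of the means was magnolol, vehicle, dicoumarol, combination and rosiglitazone, and the magnolol and vehicle libraries overlapped. The vehicle and dicoumarol libraries did not overlap but were not called apart (log2 0.10, adjusted p = 0.602 by limma). With rosiglitazone IDH1 was 66.1% above vehicle, a log2 fold change of 0.73 (SE 0.0524, adjusted p = 2.70e-08 by limma). With the combination it was higher than with vehicle by 0.25 (SE 0.0524, adjusted p = 0.00457 by limma). The deposited table places IDH1 on pig chromosome 15 at 111341153 to 111362296, minus strand.

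IDH2 had 2505, 2206 and 2342 with vehicle, 3339.8, 3350.2 and 2923 with the combination and 2907, 3426 and 2536 with rosiglitazone. Both treated groups lay above all vehicle libraries, and they overlapped each other. The combination was higher by 0.45 (SE 0.0898, adjusted p = 0.00321 by limma) and rosiglitazone by 0.32 (SE 0.0898, adjusted p = 0.0270 by limma). The rosiglitazone call was lost without vehicle replicate 2 (0.121) or 3 (0.0626), without rosiglitazone replicate 1 (0.0542) or 2 (0.102), with no filter (0.0718), no variance trend (0.0661) and only the groups compared (0.112). With magnolol, at 2964, 2946 and 2675, IDH2 was not called (0.28, adjusted p = 0.0937 by limma). It passed with quantile normalization (0.0450) and with only the groups compared (0.0499).

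NNT had 5895, 5549 and 5927 with vehicle and 4689, 5299 and 4547 with rosiglitazone, without overlap. It fell by 0.26 (SE 0.0576, adjusted p = 0.00584 by limma), a call that was lost in a fit of only these 2 groups (0.0840). The other treatments left NNT between 5775 and 6283 in every library. H6PD, which fell in 3T3-L1 under rosiglitazone, was 7354 ± 774 (SD, n = 3) with vehicle and 7723 ± 649.7 with rosiglitazone in DFAT, a log2 difference of 0.07 (95% interval −0.09 to 0.24, adjusted p = 0.678 by limma).

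Genes of both arms of the pentose phosphate pathway were lower with magnolol in DFAT. Limma called 2 of the 9 genes, both lower, against a background of 4.22%. PGD had 13176, 11751 and 11734 with vehicle and 10188, 9735 and 9126 with magnolol. TKT had 15755, 14444 and 13085 with vehicle and 11698, 12142 and 10392 with magnolol. In both genes every magnolol library lay below every vehicle library. The adipocyte and the fibroblast marker sums were both higher in the magnolol libraries (above), while the fibroblast marker PDGFRA was called lower. The part of these markers in this result was not tested. PGD fell by 0.34 (SE 0.0652, adjusted p = 0.00478), and TKT fell by 0.34 (SE 0.0822, adjusted p = 0.0247 by limma). TALDO1 had 6135, 5776 and 5423 with vehicle and 5142, 5135 and 4434 with magnolol, also without overlap, and was not called (−0.24, adjusted p = 0.0533 by limma). TALDO1 passed with a minimum mean of 50 (0.0478) and without vehicle replicate 3 (0.0386). The TKT call was lost without vehicle replicate 1 (0.144) or 2 (0.0622), without magnolol replicate 1 (0.0573) or 3 (0.133), with no filter (0.0733), quantile normalization (0.0588) and no variance trend (0.0697).

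The combination changed 3 of the 9 genes in DFAT, against a background of 10.2%. IDH1 and IDH2 rose (above), and PGD, at 10380.3, 9724 and 9756, fell by 0.29 (SE 0.0652, adjusted p = 0.00663 by limma). TKT was 12460.3 ± 959 and TALDO1 5041 ± 284 (SD, n = 3), with differences of −0.21 (adjusted p = 0.122) and −0.20 (adjusted p = 0.0734 by limma) from vehicle that were not called. TALDO1 passed without vehicle replicate 3 (−0.24, 0.0498). Dicoumarol changed 0 of the 9 genes by limma, against a background of 1.94%. At an unadjusted p under 0.05 there was 1 gene, IDH2, at 2696, 2651 and 2761 (0.20, 95% interval 0.01 to 0.39, adjusted p = 0.438 by limma).

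Against dicoumarol the combination changed 1 of the 9 DFAT genes, with a background of 2.35%. PGD had a log2 difference of −0.28 (SE 0.0652, adjusted p = 0.0311 by limma). This was lost without dicoumarol replicate 1 (0.214), 2 (0.0533) or 3 (0.0757), without combination replicate 2 (0.104) or 3 (0.119), with no filter (0.0685) and with no variance trend (0.0800). Against magnolol it changed 1 gene, IDH1, higher by 0.35 (SE 0.0524, adjusted p = 0.00253 by limma), with a background of 0.621%. The test of departure from the sum of the single effects called 0 of the 9 genes by limma (background 0.0810%). IDH1, at 0.26 (SE 0.0742, adjusted p = 0.646 by limma), was the 1 gene with an unadjusted p under 0.05. Rosiglitazone differed from the combination in 4 genes, against a background of 17.0%. IDH1 was higher by 0.48 (SE 0.0524, adjusted p = 6.08e-06), TALDO1 by 0.29 (SE 0.0665, adjusted p = 0.00514) and PGD by 0.22 (SE 0.0652, adjusted p = 0.0243), and NNT was lower (−0.36, SE 0.0576, adjusted p = 0.000313 by limma). The PGD call was lost without combination replicate 2 (0.0792) or 3 (0.0738), without rosiglitazone replicate 1 (0.0712) or 2 (0.0510) and with only the groups compared (0.0748).

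**Figure D3:**
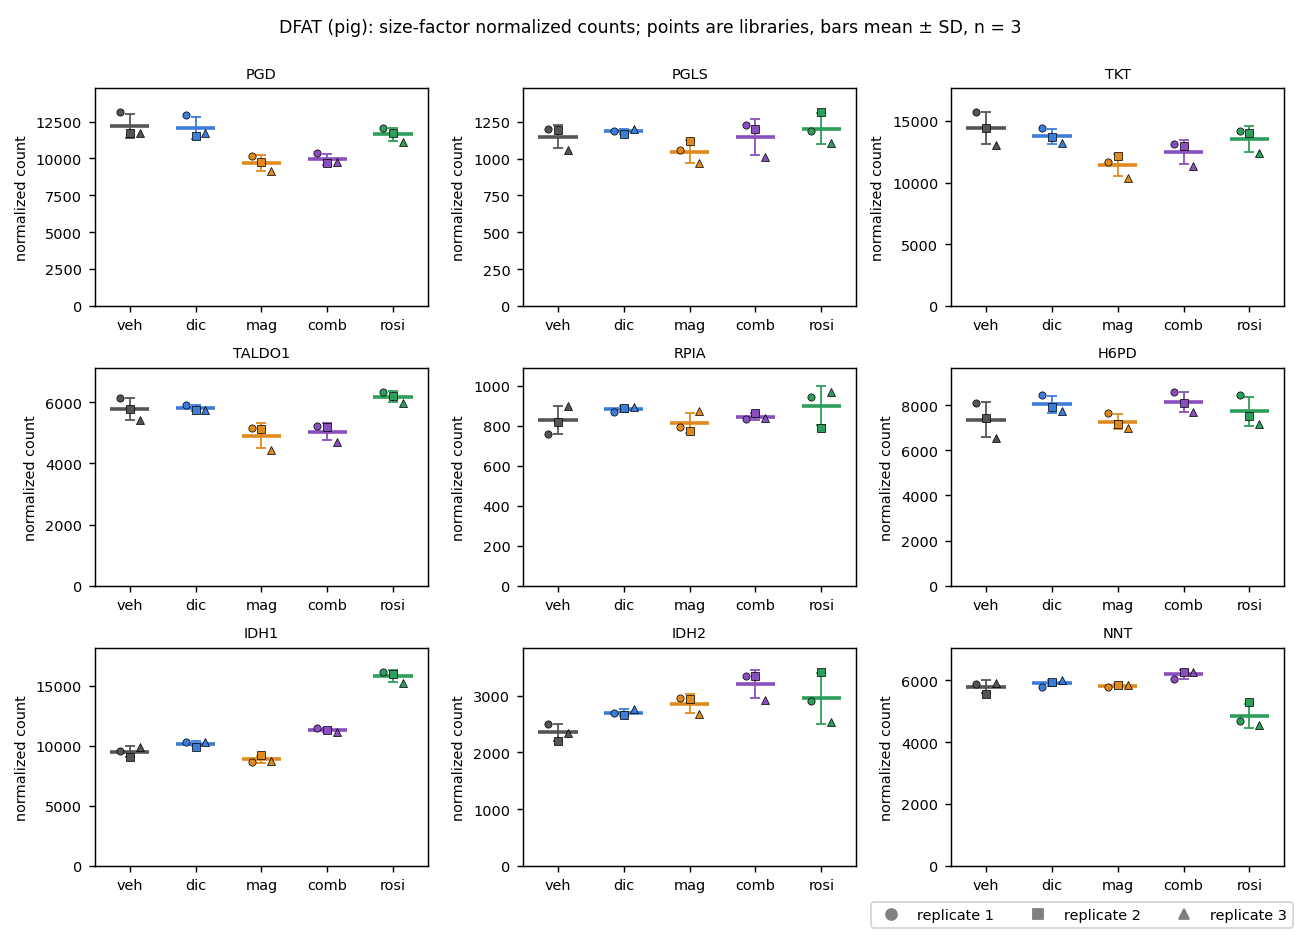
Normalized counts of the 9 pig genes (vertical axes) in the 5 groups of DFAT libraries (veh vehicle, dic dicoumarol, mag magnolol, comb combination, rosi rosiglitazone), with each point a library and bars the mean ± SD (n = 3). IDH1 lies between 15243 and 16202 in the rosiglitazone libraries, and PGD lies lowest in the magnolol and combination libraries.

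The responses of the 2 systems were compared in a joint fit of 9369 genes whose symbol occurs in both tables, which held 8 of the 10 genes. Pig RPE was not analysed, and Nnt has 2 mouse rows. For rosiglitazone the response differed in 7 of the 8 genes, against a background of 38.7%. The difference, as DFAT minus 3T3-L1 on the log2 scale, was −1.66 for Taldo1 (SE 0.165, adjusted p = 2.63e-08), −0.92 for Tkt (adjusted p = 8.76e-05), −0.69 for Rpia (adjusted p = 0.000940) and −0.53 for Pgd (adjusted p = 0.000242 by limma). It was 0.77 for Idh2 (SE 0.169, adjusted p = 0.000794), 0.62 for H6pd (adjusted p = 0.00106) and 0.37 for Idh1 (adjusted p = 0.0179 by limma). The 4 pentose phosphate genes thus responded more in 3T3-L1, Idh2 fell in 3T3-L1 and rose in DFAT, and Idh1 rose in both and by more in DFAT. Pgls, at −0.57, was just short of the threshold (adjusted p = 0.0517 by limma). With the replicate number as a block over the 3T3-L1 libraries of this fit, all 8 genes were called for rosiglitazone, against 47.0% of all genes, Pgls among them (adjusted p = 0.0118 by limma). Without the block Pgls passed without 3T3-L1 vehicle replicate 1 (0.0157) or rosiglitazone replicate 3 (0.00791), without DFAT vehicle replicate 3 (0.0487) or rosiglitazone replicate 2 (0.0460), and with a minimum mean of 50 (0.0489). Idh1 was lost without 3T3-L1 vehicle replicate 3 (0.0501) or 3T3-L1 rosiglitazone replicate 1 (0.0542).

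For magnolol the response differed in 3 of the 8 genes, against a background of 3.28%. The differences were −0.57 for Pgd (SE 0.104, adjusted p = 0.00224), −0.65 for Tkt (SE 0.165, adjusted p = 0.0260) and −0.87 for Taldo1 (SE 0.165, adjusted p = 0.00298 by limma). Pgd, Tkt and Taldo1 had log2 fold changes of 0.23, 0.32 and 0.63 in 3T3-L1 and of −0.34, −0.34 and −0.24 in DFAT, with opposite signs in every case. Against vehicle, Pgd (adjusted p = 0.302) and Tkt (0.412) were not called in 3T3-L1, nor was TALDO1 in DFAT (0.0533 by limma). For the combination 4 of the 8 differed, against a background of 11.6%. They were Pgd (−0.64, adjusted p = 0.000180), Tkt (−0.58, adjusted p = 0.0195), Taldo1 (−1.03, adjusted p = 0.000162) and Idh2 (0.65, adjusted p = 0.0113 by limma). The Tkt difference was lost for magnolol without 3T3-L1 vehicle replicate 2 (0.0663), 3T3-L1 magnolol replicate 1 (0.0967), DFAT vehicle replicate 1 (0.0844) or DFAT magnolol replicate 3 (0.0876). For the combination it was lost without 3T3-L1 vehicle replicate 2 (0.0596), 3T3-L1 combination replicate 1 (0.0759), DFAT vehicle replicate 1 (0.0636) or DFAT combination replicate 3 (0.0646). H6pd passed for the combination without 3T3-L1 combination replicate 2 (0.44, 0.0463). With the block over the 3T3-L1 libraries, 5 of the 8 were called for magnolol, against 8.41% of all genes, adding Idh1 (−0.34, adjusted p = 0.00768) and Idh2 (0.46, 0.0144 by limma). For the combination it called 6, against 19.7%, adding Rpia (−0.32, adjusted p = 0.0406) and H6pd (0.37, 0.0140 by limma). For dicoumarol limma called 0 of the 8 (background 0.0854%), and 1 gene had an unadjusted p under 0.05. The block also called 0 for dicoumarol, against 1.32% of all genes, with Taldo1 at −0.36 (adjusted p = 0.0512 by limma). Species, induction mix, serum and depth differ together between the systems and cannot be told apart. The treatments of a system share their vehicle libraries, so that results for magnolol, the combination and rosiglitazone are not independent.

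**Figure D4:**
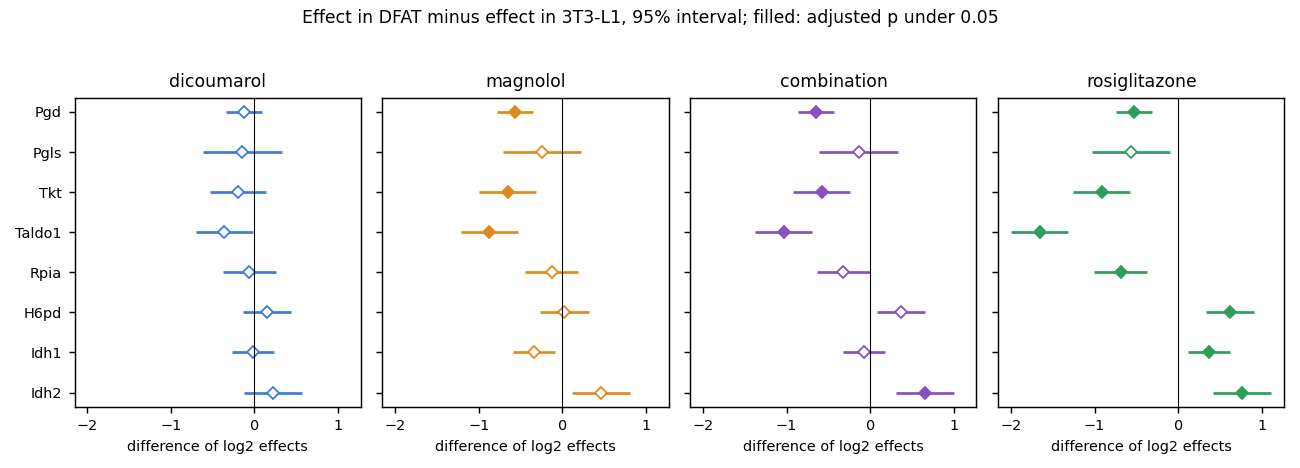
Difference of the log2 effect against vehicle, DFAT minus 3T3-L1 (horizontal axis), for 8 genes and 4 treatments, with bars the 95% interval and filled points an adjusted p under 0.05. Pgd, Tkt and Taldo1 lie left of 0 for magnolol, the combination and rosiglitazone, and Idh2 lies right of 0 for the combination and rosiglitazone.

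Other enzymes of these pathways were counted from lists. Of 7 tested neighbours of the pentose phosphate pathway in 3T3-L1, 4 changed under rosiglitazone, 2 higher and 2 lower, against a background of 40.1% of all genes, with a median log2 fold change of 0.30. Tigar, which codes for a phosphatase that diverts glycolytic flux towards the pathway, went from a mean of 293 to 659 (1.20, adjusted p = 8.46e-05 by limma). Prps2, which uses ribose phosphate for nucleotide synthesis, went from 2734 to 1224 (−1.17, adjusted p = 2.43e-06 by limma). Dera, a deoxyribose phosphate aldolase, went from 516 to 836 (0.70, adjusted p = 9.62e-05 by limma). With the combination 1 of the 7 was called (background 5.22%), Prps2 (−0.46, adjusted p = 0.0322 by limma). With magnolol and with dicoumarol limma called 0 (1 and 0 at an unadjusted p under 0.05), where the backgrounds were 1.23% and 0%. With the replicate block the counts were 5 for rosiglitazone, 2 for the combination and 0 for magnolol and dicoumarol, against 49.8%, 13.5%, 4.96% and 0.502% of all genes. In DFAT, 1 of 8 tested neighbours was called with the combination (background 10.2%), DERA, which was lower (−0.23, adjusted p = 0.0354 by limma). Limma called 0 of the 8 in DFAT for dicoumarol, magnolol and rosiglitazone (0, 2 and 2 at an unadjusted p under 0.05), with backgrounds of 1.94%, 4.22% and 10.8%.

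Of 11 other NADPH sources, 7 changed in 3T3-L1 under rosiglitazone, 5 higher and 2 lower, against a background of 40.1%. Me1, the cytosolic malic enzyme, went from 1204 to 2960 (1.30, adjusted p = 5.13e-06 by limma). Me3, a mitochondrial malic enzyme, went from 20.5 to 6.64 (−1.49, adjusted p = 0.00539), and Aldh1l2, a mitochondrial folate enzyme, from 1485 to 946 (−0.65, adjusted p = 0.00244 by limma). The Me3 values lie near the filter of 10, where the fold change also depends on the 1 added before the log. The combination called 2 of the 11 (background 5.22%), both higher, Me1 among them (0.77, adjusted p = 0.00448 by limma), and for magnolol and dicoumarol limma called 0 (4 and 1 at an unadjusted p under 0.05; backgrounds 1.23% and 0%). The replicate block called 7 for rosiglitazone (49.8% of all genes), 4 for the combination (13.5%), 2 for magnolol (4.96%) and 0 for dicoumarol (0.502%). In DFAT, MTHFD2, a mitochondrial folate enzyme, was the 1 of the 11 called under rosiglitazone (0.43, adjusted p = 0.0127 by limma), against a background of 10.8%. For dicoumarol, magnolol and the combination limma called 0 of the 11 (1, 1 and 0 at an unadjusted p under 0.05), with backgrounds of 1.94%, 4.22% and 10.2%.

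Of 12 genes whose enzymes use NADPH, 8 changed in 3T3-L1 under rosiglitazone, 7 higher and 1 lower, against a background of 40.1%. Hsd11b1, which codes for the glucocorticoid-activating reductase that draws on NADPH made by H6pd, went from 78.6 to 335 (2.02, adjusted p = 0.000291 by limma) while H6pd itself fell. The mitochondrial thioredoxin reductase gene Txnrd2 rose by 0.89 (adjusted p = 0.000686) and the NADPH oxidase gene Nox4 fell by 0.94 (adjusted p = 0.000593 by limma). Magnolol and the combination each called 1 of the 12 in 3T3-L1, higher, against backgrounds of 1.23% and 5.22%. With the replicate block they called 4 and 8, against 4.96% and 13.5% of all genes, and rosiglitazone 9, against 49.8%. In DFAT, 4 of the 12 changed under rosiglitazone, 1 higher and 3 lower, against a background of 10.8%. HSD11B1 went from 71.1 to 36.8 (−0.95, adjusted p = 0.00368) and TM7SF2, a sterol reductase, fell by 0.50 (adjusted p = 0.0273 by limma). TXNRD1, the cytosolic thioredoxin reductase, was lower with dicoumarol (−0.34, adjusted p = 0.0192), magnolol (−0.45, adjusted p = 0.00118) and the combination (−0.60, adjusted p = 2.76e-05 by limma). Those 3 treatments called 1, 2 and 3 of the 12 in DFAT, against backgrounds of 1.94%, 4.22% and 10.2%.

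The NAD-linked isocitrate dehydrogenase of the citric acid cycle, which makes NADH, was set beside Idh2. All 3 of its subunit genes rose in 3T3-L1 under rosiglitazone, where Idh2 fell and 40.1% of all genes were called. Idh3a went from 1496 to 8912 (2.56, SE 0.164, adjusted p = 6.98e-08 by limma). Idh3b rose by 0.69 (adjusted p = 2.74e-05) and Idh3g by 0.60 (adjusted p = 0.00522 by limma). Idh3a was also higher with magnolol (0.93, adjusted p = 0.0113) and the combination (1.24, adjusted p = 0.000725), and Idh3b with the combination (0.39, adjusted p = 0.0191 by limma), against backgrounds of 1.23% for magnolol and 5.22% for the combination. The replicate block called 1, 2 and 3 of the subunit genes for dicoumarol, magnolol and the combination in 3T3-L1, against 0.502%, 4.96% and 13.5% of all genes. In DFAT limma called 0 of the 3 under rosiglitazone (background 10.8%), 0 at an unadjusted p under 0.05, with IDH3A at −0.01, IDH3B at −0.06 and IDH3G at −0.03. IDH3A was lower with the combination (−0.23, adjusted p = 0.0197 by limma; background 10.2%).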

How the data were processed

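The 2 tables hold gene counts divided by DESeq2 size factors by the authors, 1 signal value per gene and library, per the labels' file descriptions. The submitters' processing notes name bcl2fastq 2.19.1.403, STAR, DESeq2 and the build GRCm38 for both species. The counter and the annotation behind the tables: not given in the sources used here. Of 24070 mouse genes matched to GENCODE M21 (GRCm38), 95.5% had the same length but 2.18% the same start. Most deposited mouse starts are thus not those of GRCm38, and the build they follow was not settled. Coordinates are printed as deposited, and the end printed is the listed stop less 1. Lengths per kilobase and promoters come from the reference, not from the deposited coordinates. Libraries were poly(A)-enriched and strand-marked, per the labels' protocols; whether counting used the strand is not given.

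Genes with a mean of at least 10 entered limma (version 3.58.1, R version 4.3.3) as log2(value + 1). All 5 groups of a table shared 1 model, with a trend in the prior variance, two-sided tests and Benjamini-Hochberg adjustment over all genes tested. The 2-system fit used symbols found once in each table. Low values that were whole multiples of 1 read (up to 20 reads, tolerance 0.02) made up 81.4% to 82.7% of those looked at in 3T3-L1 libraries, and 90.1% to 91.3% in DFAT libraries, so count tests were not run. Same-numbered 3T3-L1 libraries of different groups deviated together. The correlation of their deviations exceeded 0.1 in 30 of 30 pairs, with 0.106 the lowest and 0.300 the median. The 60 differently numbered pairs had a median of −0.142. That value is no separate evidence, since deviations within a group cancel and positive same-numbered pairs make the others negative on average. The numbers therefore pair the 3T3-L1 libraries. In DFAT 16 of 30 same-numbered pairs exceeded 0.1, and every pair did only among magnolol, combination and rosiglitazone. There the replicate block kept 1 of the 9 genes called for the combination against magnolol, against 1.96% of all genes. For rosiglitazone against the combination it kept 4, against 24.9%. The block called 290 genes in place of 92 in the first of these. The fit was also run on simulated data that had no shared replicate effect, so that run does not cover the pairing.

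Alternatives were no filter, a minimum mean of 50, pseudocounts of 0.5 and 5, quantile normalization, no variance trend, only the groups compared, the block, and each library left out. Summing the 2 Nnt rows, and the block over the 3T3-L1 libraries in the 2-system fit, were chosen after seeing the data. The 10 genes and the lists were chosen with earlier results of these data known. A planned list entry is not reported here, and the list counts leave it out. Named are all 10 genes, marker genes, and from each list the up to 3 genes called in a comparison with vehicle that had the largest fold change in a system, or all genes of a list of 3. Tables and plots were made in Python 3.11.15.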

Additional observations from a re-analysis of the deposited data

Results flagged for a closer look

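In 14 cases the effect of a treatment differed between the systems by the test of the difference itself, given here as DFAT minus 3T3-L1 on the log2 scale (limma, adjusted p under 0.05 over 9369 genes). For rosiglitazone these were Taldo1 (−1.66), Tkt (−0.92), Rpia (−0.69), Pgd (−0.53), Idh1 (0.37), H6pd (0.62) and Idh2 (0.77). For the combination they were Taldo1 (−1.03), Pgd (−0.64), Tkt (−0.58) and Idh2 (0.65). For magnolol they were Taldo1 (−0.87), Tkt (−0.65) and Pgd (−0.57).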

How the results depend on the processing

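Counts of called genes among the 10 are given here where an alternative moved them by over 1.5 times. In 3T3-L1, magnolol against vehicle gave 1, and 0 with no filter, quantile normalization, no variance trend or only the groups compared. The combination against vehicle gave 2, and 1 with only the groups compared. Rosiglitazone against the combination gave 3, and 5 with a minimum mean of 50 or quantile normalization. The replicate block gave 1 for dicoumarol, 2 for magnolol, 7 for the combination, 1 for the combination against dicoumarol and 7 for rosiglitazone against the combination. In DFAT, magnolol gave 2, and 1 with no filter or no variance trend. Rosiglitazone gave 3, and 1 with only the groups compared. The combination against dicoumarol gave 1, and 0 with no filter or no variance trend. The DFAT vehicle and dicoumarol libraries had no group with which every same-numbered pair correlated over 0.1. Vehicle with dicoumarol ran from 0.0747 to 0.193, and vehicle with rosiglitazone from −0.306 to 0.0763. The replicate block gave 4 for magnolol, 6 for the combination and 2 for the combination against dicoumarol. The shares of all genes called with it were 9.18%, 17.8% and 6.03%.

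With each library left out in turn, the 3T3-L1 counts ranged from 0 to 1 for magnolol, 1 to 2 for the combination, 6 to 9 for rosiglitazone and 1 to 5 for rosiglitazone against the combination. Over all genes the counts were 22 to 135, 286 to 726, 4848 to 6615 and 1077 to 4019 in the same order. The DFAT counts ranged from 1 to 3 for magnolol, 3 to 4 for the combination, 2 to 3 for rosiglitazone, 0 to 1 for the combination against dicoumarol and 3 to 4 for rosiglitazone against the combination. All-gene counts there were 400 to 577, 1011 to 1375, 1125 to 1848, 175 to 268 and 1840 to 2577. The counts of differences between systems ranged from 2 to 3 for magnolol, 3 to 5 for the combination and 6 to 8 for rosiglitazone. For these the all-gene counts were 156 to 328, 730 to 1108 and 3012 to 4000. Of the values of single genes under an alternative, over all comparisons and the differences between systems, 2852 kept their side of the threshold, 71 lost the call, 45 gained it and none of those run reversed a call. In the comparisons with vehicle alone these numbers were 1059, 40 and 21. The replicate block over the 3T3-L1 libraries, chosen after seeing the data, gave 5 differences for magnolol in place of 3.

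Over all genes, counts moved by over 1.5 times as follows. In 3T3-L1 the 193 genes of magnolol became 80 with no variance trend and 102 with only the groups compared, and the 2879 of rosiglitazone against the combination became 1465 in the latter. The 4 of the combination against dicoumarol became 8 with quantile normalization and 0 with no trend or only the groups compared. The block gave 79 for dicoumarol, 780, 2124, 569 and 5234 for magnolol, the combination, the combination against dicoumarol and rosiglitazone against the combination. In DFAT only the groups compared gave 936 of 1604 for rosiglitazone, 44 of 92 for the combination against magnolol (57 with no trend) and 1336 of 2523 for rosiglitazone against the combination. The 12 of the DFAT interaction became 7 with no filter, 5 with no trend and 34 with the block. The block gave 670 for dicoumarol, 1360 for magnolol, 2643 for the combination and 893 for the combination against dicoumarol. In the 2-system fit the 3T3-L1 block gave 124 differences in place of 8 for dicoumarol, 788 in place of 307 for magnolol and 1846 in place of 1083 for the combination. The cause of these shifts was not tested. With 3 libraries per group, log2 differences below the printed intervals cannot be resolved.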
